A study of Mus musculus with 2 samples.

Results

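C1q macrophages were the cells among sorted periosteal cells that held RNA of complement C1q together with RNA of leukocyte genes. They were chosen by their own counts: a cell was taken when *C1qa*, *C1qb* and *C1qc* gave a sum of at least 5 UMIs and *Ptprc*, *Tyrobp*, *Cd52* and *Coro1a* also gave a sum of at least 5 UMIs, where a unique molecular identifier (UMI) counts each captured mRNA molecule once. Cells had to have 500 to 5000 detected genes and under 25% mitochondrial UMIs. The rule took 594 of 12212 such cells, from 13587 barcodes. Control cells gave 303 of 5478 (5.53%, exact binomial 95% interval 4.94 to 6.17) and *Piezo1* fl/fl cells 291 of 6734 (4.32%, 3.85 to 4.83). These shares were lower in the *Piezo1* fl/fl library, and they depend on how many other cells each sort delivered.

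The cells were digested from periosteum of leg bones (femur, tibia) at 8 weeks of age, freed of red cells by lysis and sorted as Prx1-positive. Control mice carried Prx1 Cre; Ai9/+, and the others carried these alleles with Piezo1 fl/fl. Prx1 Cre is driven by regulatory sequence of *Prrx1*, a gene of limb mesenchyme, and Ai9 is a Cre-dependent tdTomato reporter. Each genotype had 1 BD Rhapsody library, of 28030299 (control) and 32337308 (*Piezo1* fl/fl) UMIs. The libraries shared 50 barcode sequences, held by 4 control macrophages and 1 *Piezo1* fl/fl macrophage, and 1 sequence was a macrophage in both. With 1 library per genotype, no test was made, genotype and library cannot be told apart, and every interval covers counting error alone, at 95%.

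C1q is the recognition part of the classical complement pathway, and its A, B and C chains come from neighbouring genes on mouse chromosome 4. Tissue macrophages are a main source of it. In many organs resident macrophages vary between cells with *Lyve1*, *Timd4* or *Folr2*, which clear debris and often lie beside vessels, and cells with MHC class II genes and in part *Ccr2*, which present antigen and draw more on blood monocytes. Bone also holds macrophages with *Vcam1* and *Spic* that clear red cells and recycle their iron.

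*Piezo1*, the mechanically gated channel whose alleles are floxed, gave 8 UMIs in the macrophages of the control library and 6 in those of the *Piezo1* fl/fl library, or 5.34 and 3.43 CPM (parts per 1e6 of all UMIs of the group). Values in pairs are given for the control first. Other cells, those under both UMI sums, held 5.16 and 2.11 CPM. The UMIs tag the 3′ ends of transcripts and the position of the deleted part was not known here, so these counts check the deletion little. *Prrx1*, whose regulatory sequence drives the Cre, was at 81.4 and 41.8 CPM in the macrophages and at 851 and 692 CPM in other cells. No feature was named for tdTomato or Cre, so whether the macrophages had recombined or carried the reporter could not be read. How leukocytes came through the Prx1 sort was not tested.

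Genes the rule did not use fitted the label. All 15 genes of a macrophage identity list were at least 2-fold higher in these cells than in all remaining filtered cells outside the leukocyte cells without C1q, in each library, where 16.3% of 12151 tested genes (control) and 16.3% of 12127 (*Piezo1* fl/fl) were as much higher. Since the same counts chose the cells, this describes them and tests nothing. *Lyz2*, which encodes lysozyme and has a near-identical copy in *Lyz1*, reached 13358 CPM (control) and 12946 CPM (*Piezo1* fl/fl). *Csf1r*, the receptor for the growth factor that keeps macrophages alive, was at 2161 and 1902 CPM, against 7.96 and 6.22 CPM in other cells. *Mrc1*, the mannose receptor, was at 1962 and 1806 CPM, and *Adgre1*, which encodes the F4/80 antigen, at 851 and 787 CPM. The list summed to 29497 CPM (interval 29223 to 29774) in the control and 28604 CPM (28354 to 28856) in *Piezo1* fl/fl cells, a level close between them. Other cells held far less, 149 and 138 CPM. Leukocyte cells without C1q lay between, at 10762 and 10858 CPM, with *Lyz2* at 4287 and 6107 CPM.

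**Figure D1:**
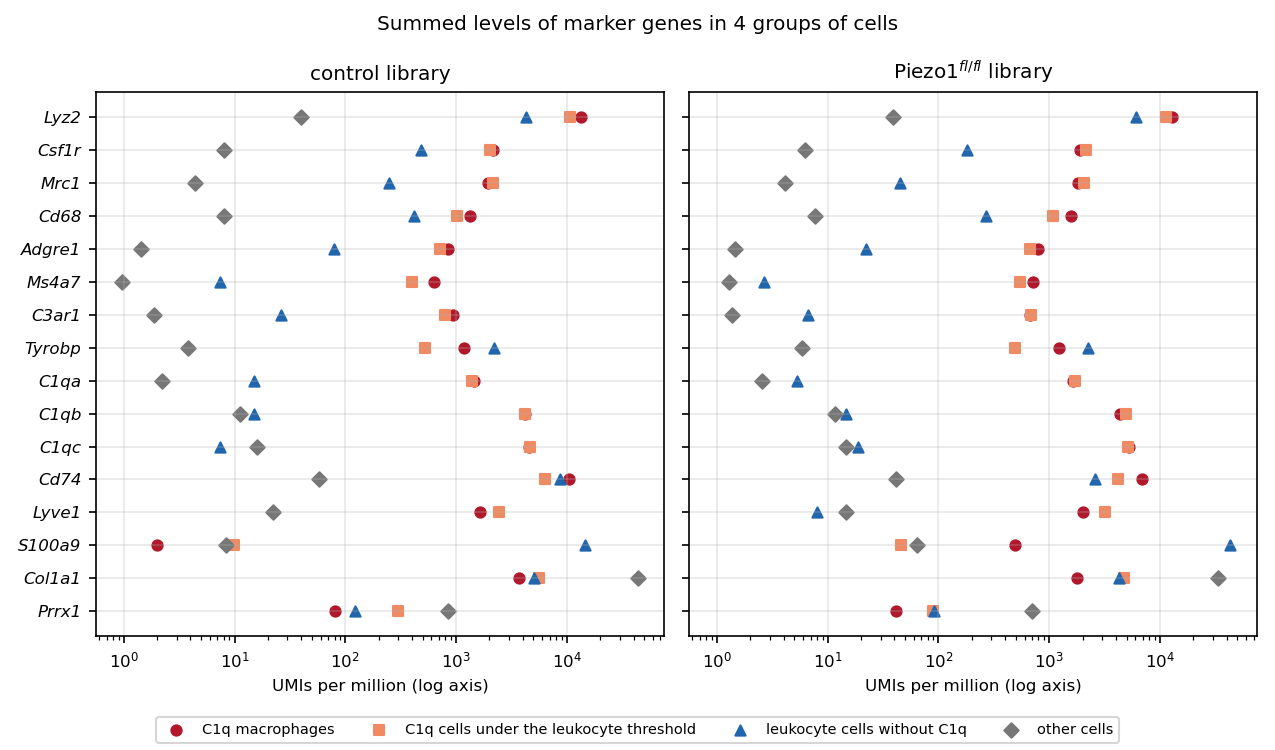
Summed levels of 16 genes (CPM, log axis) in 4 groups of cells, for the control library (left) and the *Piezo1* fl/fl library (right); a gene without a UMI in a group has no point. *Csf1r* lies near 2000 CPM in both groups with C1q RNA and under 10 CPM in other cells, while *Col1a1* and *Prrx1* are highest in other cells.

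The values that chose the cells are given as a description. *C1qa* was at 1445 and 1640.2 CPM in the control and *Piezo1* fl/fl libraries, *C1qb* at 4149.9 and 4324 CPM and *C1qc* at 4599 and 5297 CPM, and the median macrophage had 46 and 59 C1q UMIs. The adaptor *Tyrobp*, which signals for activating receptors of myeloid cells, was at 1172 and 1236 CPM. *Ptprc*, which encodes CD45, was at 645 and 564 CPM, *Cd52* at 421 and 441 CPM and *Coro1a*, an actin regulator of leukocytes, at 192 and 129 CPM. C1q RNA was at 29.3 and 28.8 CPM in other cells, of which 12.7% and 12.3% had a C1q UMI at median depths of 4246 and 4001.5 UMIs, against 4215 and 4767 in the macrophages. A low level of C1q RNA was thus found across cells that should lack it.

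The leukocyte threshold ran through a continuous group. Cells with a leukocyte sum of exactly 5 numbered 50 in the control and 40 in *Piezo1* fl/fl cells and held 10888 and 11553 CPM of C1q RNA. Those with a sum of 4, just outside, numbered 42 and 57 and held 11692 and 12999 CPM, with *Mrc1* at 2537 and 2534 CPM, so they looked like macrophages too. In all, 204 and 274 cells, grouped after values were seen, had at least 5 C1q UMIs and under 5 leukocyte UMIs, and their median depth was 1906.5 and 1906 UMIs. The rule therefore took the deeper C1q cells. At the C1q threshold, 7 and 8 macrophages had 5 to 9 C1q UMIs, while 6 and 44 leukocyte cells had 1 to 4. Those just outside held the neutrophil gene *S100a9* at 6875 and 21376 CPM, against 0 and 76.8 CPM just inside. *Csf1r* was at 506 and 368 CPM outside and 826 and 1121 CPM inside. *Mrc1* was at 674 and 87.1 CPM outside and 482 and 246 CPM inside, so in the control it was higher outside. The few cells just inside held C1q RNA at 1893 and 814 CPM, against 10194 and 11261.5 CPM in all macrophages.

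The 15 genes with the highest levels in control macrophages combined phagocyte, antigen presentation and early response genes. After *Lyz2* came *Cd74*, the invariant chain of MHC class II, at 10374 and 6876 CPM, the actin-binding peptide *Tmsb4x* at 10330.2 and 12479.5 CPM, *Actb* and the ferritin heavy chain *Fth1* at 7538 and 10949 CPM. They were followed by *Zfp36*, which destabilizes cytokine mRNAs, the lysosomal protease *Ctsb*, the immediate early gene *Fos*, *H2-Aa*, *Vim*, the lipid carrier *Apoe*, *Itm2b*, *C1qc*, the protease inhibitor *Cst3* and the protease *Ctss*. In the *Piezo1* fl/fl library *Cd74* ranked at 6 and *H2-Aa* at 20, the largest fall in rank among the 15.

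The 20 genes with the largest ratio over remaining cells were led by *Itgax*, the integrin CD11c, with log2 ratios of 8.66 in the control and 7.23 in *Piezo1* fl/fl cells. The group held the lectin receptors *Clec4n* and *Clec4a2*, the perforin-like *Mpeg1*, the lipid receptor *Trem2*, *Lyz1*, *Cd180*, *Vsig4*, *Aif1* and *Plbd1*. It also held the chemokine receptors *Cx3cr1* and *Ccr2*, the acid-sensing receptor *Gpr65*, *Rgs1*, *Tyrobp*, *Cd52*, *Slamf7*, *Slamf9*, *Havcr2* and *Cd300c2*. The smallest of these ratios, for *Plbd1* in the control, was 5.94, while the median over all tested genes was 0.05 and -0.01. *Cd52* and *Tyrobp* are genes of the rule. Leukocyte cells without C1q, which are not among the remaining cells, held more of *Cd52*, *Tyrobp* and *Plbd1* than the macrophages in both libraries. In the control alone they held more of *Lyz1*, *Ccr2*, *Slamf7* and *Itgax*, *Itgax* at 134 and 77.3 CPM against 79.4 and 106 CPM in the macrophages. In the *Piezo1* fl/fl library alone they held slightly more of *Clec4a2*, at 227 against 212 CPM. The 20 genes thus set the macrophages apart from non-leukocytes, and only in part from other leukocytes.

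The macrophages varied in *Lyve1*, a hyaluronan receptor, and in MHC class II genes, which on average went opposite ways. To even out depth, 1500 UMIs were drawn from each cell, possible for 295 control and 284 *Piezo1* fl/fl macrophages, and these were split by whether a *Lyve1* UMI remained. The split and the genes shown for it were chosen after their values were seen. The summed MHC class II level with against without *Lyve1* was 8485 against 36867 CPM (control) and 6705 against 30083 CPM (*Piezo1* fl/fl). The level was thus several-fold lower in cells with *Lyve1*, in each library. The split was not clean. A class II UMI was found in 52 of 99 (control) and 69 of 155 (*Piezo1* fl/fl) cells with *Lyve1*. Without *Lyve1* it was found in 172 of 196 and 107 of 129 cells. Some cells of each library had neither *Lyve1* nor class II UMIs.

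Several genes of the resident list were higher with *Lyve1*. *F13a1*, coagulation factor XIII A, was at 3495 against 602 CPM (control) and 3708 against 599 CPM (*Piezo1* fl/fl), with and without *Lyve1*. *Cd163*, the scavenger receptor for hemoglobin bound to haptoglobin, was at 1966 against 659.9 CPM (control) and 1479.6 against 429 CPM (*Piezo1* fl/fl), and the complement receptor *Vsig4* at 909 against 30.6 CPM (control) and 692 against 36.2 CPM (*Piezo1* fl/fl). *Timd4*, a receptor for phosphatidylserine on dying cells, *Cbr2*, the chemokine *Ccl24*, *Gas6* and *Mrc1* were also higher with *Lyve1* in both libraries.

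Of the genes looked at, some were lower with *Lyve1*. *Ccr2*, the receptor that draws monocytes into tissue, was at 80.8 against 592 CPM (control) and 90.3 against 326 CPM (*Piezo1* fl/fl), with and without *Lyve1*. The fractalkine receptor *Cx3cr1* was at 155 against 819.7 CPM (control) and 151 against 289 CPM (*Piezo1* fl/fl), and the cytokine gene *Il1b* at 13.5 against 381 CPM (control) and 38.7 against 698 CPM (*Piezo1* fl/fl). *Cxcl2*, *Tnf* and *Lpl* were lower with *Lyve1* in both libraries as well. C1q RNA differed far less across the split, at 12222 against 10163 CPM (control) and 13914 against 10388 CPM (*Piezo1* fl/fl), and *Lyz2* hardly at all. Stromal RNA was at 11145 against 7272 CPM (control) and 4727 against 5276 CPM (*Piezo1* fl/fl), higher with *Lyve1* in the control and slightly lower in *Piezo1* fl/fl cells, and mural RNA also changed direction, at 67.3 against 412 CPM (control) and 301 against 181 CPM (*Piezo1* fl/fl). Cell cycle RNA was lower with *Lyve1* in both, at 13.5 against 374 CPM (control) and 30.1 against 207 CPM (*Piezo1* fl/fl). Their part in the split was not tested.

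**Figure D2:**
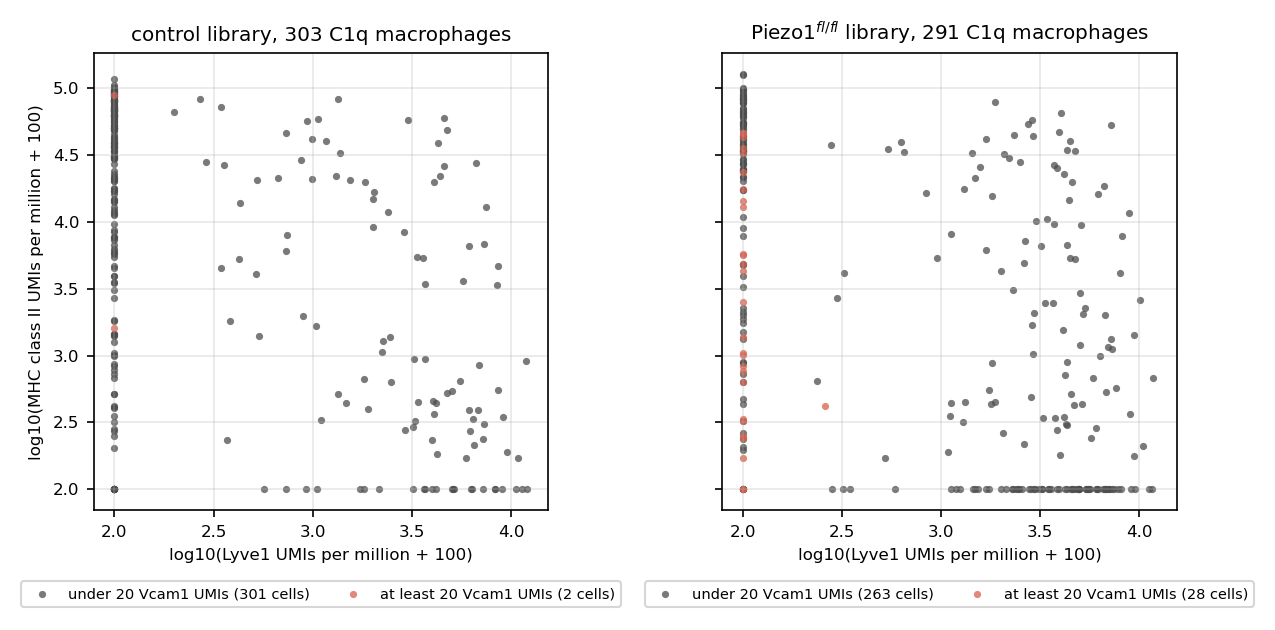
Each point is a C1q macrophage, placed by its *Lyve1* and summed MHC class II CPM (log10 after adding 100, so cells without a UMI lie at 2), for 303 control cells (left) and 291 *Piezo1* fl/fl cells (right). Cells with much *Lyve1* reach the lowest MHC class II levels, and so do some cells without *Lyve1*. The 28 *Piezo1* fl/fl cells with at least 20 *Vcam1* UMIs lie almost all at no *Lyve1*.

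More macrophages of the *Piezo1* fl/fl library had *Lyve1* RNA. At 1500 UMIs the share with a *Lyve1* UMI was 33.6% (interval 28.2 to 39.3) of control and 54.6% (48.6 to 60.5) of *Piezo1* fl/fl macrophages. Without thinning it was 113 of 303 and 169 of 291 macrophages (37.3% and 58.1%). The share in other cells, thinned to the same depth, was 0.940% and 1.14%, so the macrophage shares stood far above background. The level of *Lyve1* differed less, at 1652 CPM (control) and 2004 CPM (*Piezo1* fl/fl) (log2 ratio 0.28, interval 0.20 to 0.35), though the ratio was 0.61 after thinning and 0.72 as a mean of single-cell CPM.

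Few genes differed 2-fold between the macrophages of the libraries. Of 7067 genes with at least 50 UMIs over both libraries, 133 (1.88%) were at least 2-fold higher and 109 (1.54%) at least 2-fold lower in the *Piezo1* fl/fl macrophages, with a median log2 ratio of -0.06. Of the 1456 tested genes at least 2-fold higher in macrophages than in other cells of both libraries, 56 were higher and 23 lower. Among 1924 tested genes lower in macrophages than in other cells, 18 were higher and 47 lower in the *Piezo1* fl/fl library. The balance depended on the cells counted: without macrophages of at least 20 *Vcam1* UMIs, described below, 75 genes were higher and 105 lower, and with the C1q sum alone 136 and 160. After thinning, which left 3092 genes to test, 42 were higher and 42 lower.

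MHC class II RNA was lower in the *Piezo1* fl/fl macrophages. The 7 genes of the list summed to 23777 CPM (23531 to 24025) in the control and 15699 CPM (15513 to 15886) in *Piezo1* fl/fl cells (log2 ratio -0.60, interval -0.62 to -0.58). All 7 lay below 0 on the log2 scale, with a median of -0.59, and 1 passed 2-fold, against 1.54% of all tested genes. This was *Ciita*, the transcriptional activator of the class II genes, at 52.7 and 23.5 CPM. *H2-Aa*, which encodes an antigen-presenting chain, was at 5466 and 3474 CPM and *Cd74* at 10374 and 6876 CPM. At 1500 UMIs 75.9% (interval 70.6 to 80.7) of control and 62.0% (56.0 to 67.6) of *Piezo1* fl/fl macrophages had a UMI of the list, and 11.0% and 7.67% of other cells. Its level in other cells was also lower in the *Piezo1* fl/fl library, 139 against 95.5 CPM, and the part of RNA shared between cells in the difference was not tested.

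Receptors for signals from stromal cells were lower as a group. The 14 genes summed to 3019 and 2202 CPM (log2 ratio -0.46, interval -0.52 to -0.39), with a median of -0.34, and 2 of 14 were at least 2-fold lower, against 1.54% of all tested genes, and 0 higher. *Cx3cr1* was at 506 CPM (control) and 177 CPM (*Piezo1* fl/fl) (log2 ratio -1.51, interval -1.71 to -1.32), and *Il1rl1*, the receptor for IL-33, had 38 and 21 UMIs. *Ccr2*, from the monocyte list, was at 369.7 and 164 CPM (log2 ratio -1.18, interval -1.39 to -0.97). *Cx3cr1* and *Ccr2*, both lower in the *Piezo1* fl/fl library, are among the genes that were lower in cells with *Lyve1*.

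The resident list differed little in sum, at 9599 and 11198 CPM (log2 ratio 0.22, interval 0.19 to 0.25), with a median of 0.24 over 14 tested genes. At least 2-fold higher were 2 of 14, against 1.88% of all tested genes. They were the chemokine *Ccl8*, at 289.6 and 618 CPM, and *Fcna*, a ficolin that binds microbial sugars, at 103 and 495 CPM. Outside a cluster of 38 cells led in part by *Ccl8*, *Piezo1* fl/fl macrophages had *Ccl8* at 306 CPM, near the control. *F13a1* was at 1686 and 1999 CPM, *Cbr2* at 1046 and 1391 CPM and *Timd4* at 68.1 and 88.1 CPM, each higher in the *Piezo1* fl/fl library. *Cd163* was at 1047 and 858 CPM and the selenium carrier *Selenop* at 777 and 617 CPM, both lower. *Folr2*, a common marker of such cells, had only 10 UMIs in each library.

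Iron and heme genes showed the largest rise in sum among lists of macrophage function. The 12 genes summed to 12241 CPM (12064 to 12419) in the control and 21193 CPM (20978 to 21409.8) in *Piezo1* fl/fl cells (log2 ratio 0.79, interval 0.77 to 0.82), with a median of 0.94. At least 2-fold higher were 6 of 12, against 1.88% of all tested genes, and 0 were lower. *Hmox1*, the enzyme that breaks down heme, was at 561 and 1573 CPM, and *Slc40a1*, the iron exporter ferroportin, at 98.8 and 549 CPM. *Spic*, the transcription factor of red pulp and iron-recycling marrow macrophages, was at 23.4 and 151 CPM, the adhesion molecule *Vcam1* at 176 and 1390.2 CPM and the heme transporter *Slc48a1* at 90.8 and 182 CPM. *Cd5l*, a secreted protein of tissue macrophages, had 0 UMIs in the control and 155 in *Piezo1* fl/fl cells, at least 44.3-fold higher by the observed count against a limit of 3 counts in the control, and by a log2 ratio of 5.15 or more once counting error in both libraries is allowed for. All of these were higher in the *Piezo1* fl/fl macrophages, and *Hpgd*, which inactivates prostaglandins, at 277 and 179 CPM, was lower.

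A small set of *Piezo1* fl/fl cells held much of this difference. After the values were seen, macrophages with at least 20 *Vcam1* UMIs were taken as a set. In the *Piezo1* fl/fl library it had 28 of 291 cells (9.62%, interval 6.49 to 13.6), between 20 and 245 UMIs each, and the highest cell outside it had 12. These 28 held 93.4% of the *Vcam1* UMIs of *Piezo1* fl/fl macrophages. The control library had 2 such cells, with 23 and 25 UMIs, followed by a cell with 19, so there was no gap. The 2 control cells held 0 UMIs of *Spic*, *Cd5l*, *Itgad* and *Fcna*, which marked the *Piezo1* fl/fl set, and 5 of *Slc40a1*.

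Several genes known from iron-recycling macrophages were higher in the 28 cells. *Spic* was at 888 against 31.9 CPM in the set against the other 263 *Piezo1* fl/fl macrophages, *Slc40a1* at 3579 against 59.2 CPM and *Hmox1* at 6607 against 759 CPM. *Cd5l* was at 633 against 0.665 CPM, found in 13 of the 28, and the integrin *Itgad* at 390.4 against 4.65 CPM. *Axl*, a receptor for dying cells, was at 2424 against 189 CPM, and *Fcna* at 2650.3 against 146 CPM. The lipid-sensing nuclear receptors *Nr1h3* and *Pparg* had 37 and 86 UMIs in the set and 16 and 18 in all others, and the cytokine *Il18* was at 464 against 47.2 CPM. All of these were many-fold higher in the set.

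The set shared some genes with the *Lyve1* cells and not others. *Lyve1* had 1 UMI in the 28 cells, and *Vsig4* and *Ccr2* had 0. *Timd4* was at 156 against 77.1 CPM and *Mrc1* at 2186 against 1744 CPM, both higher in the set, while *Cd163* at 534 against 909.9 CPM and *Csf1r* at 1114 against 2029 CPM were lower. C1q genes were near the level of the other macrophages, *C1qc* for example at 6036 against 5177 CPM, and MHC class II RNA was at 11119 against 16439 CPM. The lysosome list was at 33078 against 18516 CPM, higher in the set. Hemoglobin RNA was found in 21 of the 28 and in 5 of the other 263, while the erythroid gene *Alas2* had 0 UMIs in the set. Its median depth was 7880.5 UMIs against 4626 outside it, and stromal RNA was at 2441 against 7039 CPM. Endothelial RNA, of cells that can also express *Vcam1*, was higher in the set at 86.3 against 18.6 CPM, with its 21 UMIs in 4 of the 28 cells. *Pecam1* was at 37.0 against 7.31 CPM and *Cdh5* at 4 against 2 UMIs. *Stab2*, a further gene looked at, was at 69.9 against 1.99 CPM and found in 11 of the 28 cells. The part of depth, of red cell RNA and of endothelial RNA in these differences was not tested.

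Without cells of at least 20 *Vcam1* UMIs in either library, the log2 ratio of the iron and heme list was 0.45 in place of 0.79. That of *Hmox1* was 0.43 in place of 1.49, of *Fcna* 0.49 in place of 2.27 and of *Ccr3* 0.74 in place of 4.49. Of the 6 iron and heme genes, *Vcam1* chose these cells, so its levels outside them, 146 and 107 CPM, follow from the choice. The list sum also holds *Vcam1*. None of the others among the 6 was 2-fold higher outside these cells. *Hmox1* was at 564 and 759 CPM, *Spic* at 23.6 and 31.9 CPM, *Slc48a1* at 91.0 and 140.2 CPM and *Cd5l* at 0 and 1 UMI. *Slc40a1*, at 96.4 and 59.2 CPM, turned to lower in *Piezo1* fl/fl cells. With at least 10 UMIs for both sums, which keeps deeper cells, *Hmox1* was at 2.69 and *Fcna* at 3.08, and after thinning *Hmox1* was at 0.96, short of 2-fold, and *Ccr3* at 3.38. The cells with much *Vcam1* thus held most of the rise in *Hmox1* and *Fcna*, but the ferritin light chain *Ftl1*, at 3035 and 5601 CPM, kept a log2 ratio of 0.64 without them. In cells split by *Lyve1*, *Hmox1* and *Fcna* were higher with *Lyve1* in the control and lower in *Piezo1* fl/fl cells, where *Hmox1* was at 852 with and 1452 CPM without *Lyve1*.

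The genes with the largest rise in the *Piezo1* fl/fl macrophages were of neutrophils and of the *Vcam1* set. By the rule for named genes they were *S100a9*, *S100a8*, *Ngp*, *Cd5l*, *Retnlg*, *Itgad*, *Lcn2* and *Ccr3*. *S100a9*, a subunit of the neutrophil protein calprotectin, had 3 and 863 UMIs (log2 ratio 7.95, interval 6.39 to 10.23), and *Ngp*, a neutrophil granule protein, 2 and 373 UMIs (log2 ratio 7.32, interval 5.46 to 10.37). *S100a8*, the other calprotectin subunit, had 4 and 650 UMIs, *Retnlg* 2 and 208, and the iron-binding *Lcn2* 1 and 95. *Itgad* had 0 and 102 UMIs, at least 29.1-fold higher in the *Piezo1* fl/fl library by the same limit, and by a log2 ratio of 4.54 or more with counting error in both. *Ccr3*, a chemokine receptor, was at 7.34 and 165 CPM.

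Neutrophil RNA was found in more *Piezo1* fl/fl macrophages, and most of it sat in few cells. Of the 9 genes of the neutrophil list, 4 of 5 tested were at least 2-fold higher, against 1.88% of all tested genes, and the sum was 33.4 CPM (control) and 1255 CPM (*Piezo1* fl/fl), with *S100a9* the most abundant gene there. In other cells the sum was 17.3 and 144 CPM. A UMI of the list was found in 41 of 303 and 127 of 291 macrophages, and at 1500 UMIs in 4.07% and 14.8%. For *S100a9* alone the shares at 1500 UMIs were 0% and 5.63% of macrophages and 0.802% and 5.53% of other cells. The *Piezo1* fl/fl macrophages with *S100a9* were thus about as frequent as other cells with it in that library. Leukocyte cells without C1q, where most of this RNA lay, numbered 97 and 565. The 3 highest of the 291 cells held 89.2% of the list's UMIs, with 1110, 590 and 258. *Camp* and *Ly6g* had 0 UMIs in the control, *Mpo* had 0 and 3 UMIs and *Elane* 2 in each. The 4 hemoglobin genes, whose near-identical copies share reads, had 2 and 2957 UMIs in the macrophages, of which 1 cell held 2614. Without macrophages with at least 20 UMIs over both groups of genes, the log2 ratio of *S100a9* was 4.14 in place of 7.95, that of *S100a8* 2.47 in place of 7.12, of *Ngp* 2.98 in place of 7.32, of *Retnlg* 3.28 in place of 6.48, of *Lcn2* 2.89 in place of 6.35 and that of the iron and heme list 0.59. Their part in the other differences was not tested.

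The genes with the largest fall were *Ptn*, *Itga6*, *Arap3*, *Mki67*, *Angptl7*, *Col11a1*, *Apod* and *H2-M2*. *Itga6*, a laminin-binding integrin chain, was at 123 and 21.7 CPM (log2 ratio -2.50, interval -3.04 to -1.99) and found in 99 and 29 macrophages, so it was lower across many cells, while other cells held 47.4 and 53.4 CPM. *Arap3*, a regulator of small GTPases, was at 33.4 and 5.15 CPM, and *H2-M2*, a class I-like gene of antigen-presenting cells, at 37.4 and 6.87 CPM, where 3 control cells held 82.1% of 56 UMIs. The secreted factor *Ptn* was at 74.1 and 5.72 CPM, *Angptl7* at 145 and 36.0 CPM and *Col11a1*, a fibrillar collagen chain, at 121 and 29.7 CPM. These 3 and the lipocalin *Apod*, at 141 and 35.5 CPM, were far higher in other cells, *Ptn* at 649 and 190.2 CPM, *Angptl7* at 1426 and 757 CPM and *Col11a1* at 1409 and 538 CPM, so these 3 were lower there too. In the macrophages *Apod* rested on 1 control cell with 58.3% of its UMIs. Without macrophages of at least 2% stromal UMIs, its log2 ratio was 0.53 in place of -1.99 and that of *Ptn* -2.11 in place of -3.69. That of *Angptl7* was -0.94 without Scrublet doublets and -0.53 with at least 10 UMIs for both sums, in place of -2.01, which ends the 2-fold difference. That of *Col11a1* was -1.19 with the C1q sum alone, in place of -2.03. The size of the fall of these genes thus depended on which cells were counted.

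Stromal RNA in the macrophages was lower in the *Piezo1* fl/fl library. The 10 genes, led by *Col1a1*, summed to 11359 CPM (control) and 6399 CPM (*Piezo1* fl/fl) (log2 ratio -0.83, interval -0.86 to -0.79), and 2 of 10 were at least 2-fold lower, against 1.54% of all tested genes, with a median of -0.91. Other cells held 137995 and 116109 CPM. In the median macrophage 0.408% and 0.246% of UMIs were stromal, while 14 and 11 cells with at least 2% held 65.8% and 57.8% of the stromal UMIs. Osteoblast genes summed to 178 and 138 CPM (1 of 3 tested at least 2-fold lower, beside the same 1.54%, led by *Ibsp*) and tendon genes to 444 and 289 CPM (2 of 4 lower, led by *Thbs4*). Endothelial genes summed to 49.4 and 28.0 CPM, with none of the 6 reaching 50 UMIs and *Pecam1* the highest. Mural genes summed to 446 and 414 CPM, with 0 of 5 past 2-fold and *Acta2* the highest. Their part in the results was not tested.

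Most markers of further leukocytes were near 0. In the T cell list *Cd3e*, *Cd3g* and *Nkg7* had 0 UMIs in both libraries, *Cd3d* and *Trac* had 1 and 0, and *Cd2* carried the sum of 14.7 and 37.8 CPM, with 1 of 1 tested gene higher, against 1.88% of all tested genes. The B cell list summed to 232 and 145 CPM, mostly *Ighm*, while *Cd79a* had 0 UMIs in both. *Cd79b*, 1 of 2 tested, was at least 2-fold higher, at 10.7 and 21.7 CPM, beside the same 1.88%. Mast cell genes had 3 and 2 UMIs in all, and *Cpa3*, *Kit*, *Tpsb2* and *Ms4a2* had 0 in both. Of the dendritic cell list, 0 of 2 tested genes passed 2-fold. Its sum, led by *Cd209a*, was 194 and 245 CPM, above the 72.7 and 63.5 CPM of other cells. A UMI of it was found in 80 and 97 macrophages. *Xcr1* and *Clec9a*, which mark 1 subset of conventional dendritic cells, and *Flt3* had at most 13 UMIs. Whether some of the cells were dendritic cells of another subset was not tested. The macrophages thus carried hardly any RNA of these lists beyond *Ighm*, *Cd209a* and *Itgax*.

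Monocyte genes were divided. The list summed to 891 and 1331 CPM, with 2 of 6 tested genes at least 2-fold higher and 1 lower, against 1.88% and 1.54% of all tested genes. The lower gene was *Ccr2*, and the higher ones were *Fn1*, which encodes fibronectin and is abundant in other cells at 3395 and 5064 CPM, and *Clec4e*, a receptor for microbial glycolipids, at 28.0 and 102 CPM. *Ly6c2* and *Chil3*, markers of classical monocytes, had 0 UMIs in the control and 22 and 49 in *Piezo1* fl/fl cells. The log2 ratio of *Ccr2* was -0.97 without the cells of at least 20 *Vcam1* UMIs, short of 2-fold.

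Osteoclast genes did not describe osteoclasts. *Calcr*, the calcitonin receptor of mature osteoclasts, had 0 UMIs in both libraries, *Ocstamp* 0 and 2, and *Oscar* 0 and 1. The list summed to 643 and 947 CPM, where *Ctsk* was the most abundant gene at 205 and 312 CPM, below the 462 and 463 CPM of other cells. At least 2-fold higher in the *Piezo1* fl/fl library were 2 of 6 tested, against 1.88% of all tested genes, the acid phosphatase *Acp5*, at 23.4 and 68.1 CPM, and the gelatinase *Mmp9*, at 49.4 and 233 CPM. Of the list's *Piezo1* fl/fl UMIs 1 cell held 25.5% and 3 cells 45.7%, so the rise in the sum rests on few cells. *Tnfrsf11a*, which encodes the RANKL receptor RANK, was at 154 and 114 CPM, slightly lower.

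Genes that macrophages use to clear particles and lipids were at similar or higher levels. The lysosome list summed to 16631 and 20544 CPM (log2 ratio 0.30, interval 0.28 to 0.33), with a median of 0.23, and 1 of 16 was at least 2-fold higher, against 1.88% of all tested genes. This was the protease *Ctsd*, at 422 and 847 CPM, and *Psap*, the precursor of sphingolipid activators, was at 1667 and 2764 CPM. Outside the cells of at least 20 *Vcam1* UMIs the lysosome list was at 16613 and 18516 CPM, a smaller rise. The lipid-associated list summed to 9405 and 10408 CPM, and 3 of 10 were at least 2-fold higher, against 1.88% of all tested genes. They were *Gpnmb* at 109 and 279 CPM, the fatty acid carrier *Fabp5* at 28.7 and 166 CPM and *Spp1*, osteopontin, at 63.4 and 271 CPM, which other cells held at 601 and 877 CPM. The 3 highest *Piezo1* fl/fl macrophages held 86.1%, 52.9% and 84.6% of these UMIs, and outside a cluster of 13 cells with stromal genes *Piezo1* fl/fl macrophages had *Spp1* at 70.8 CPM, near the control. *Apoe* and *Trem2*, a lipid receptor, were nearly level, at 4996 and 4580.1 CPM and 311 and 350.1 CPM.

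Clearance receptors summed to 2161 and 2332 CPM, with a median of 0.01 and 2 of 12 tested genes at least 2-fold higher, against 1.88% of all tested genes. These were *Cd300lf*, a lipid-binding receptor with 1 and 50 UMIs (log2 ratio 5.42, interval 2.88 to 10.75), and *Scarb1*, the receptor for HDL, at 22.7 and 46.3 CPM. The scavenger receptor *Msr1* was at 379 and 327 CPM, nearly level. Of the Fc receptor genes, which bind antibody, 0 of 5 passed 2-fold, at a sum of 4933 and 4821 CPM, led by the shared signalling chain *Fcer1g*.

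Complement genes beside C1q did not pass 2-fold in any of 12 tested cases, at a sum of 3954 and 3559 CPM and a median of 0.26. Receptors for the fragments of C3 and C5 were lower in the *Piezo1* fl/fl library, *C3ar1* at 942 and 677 CPM and *C5ar1* at 960.2 and 787 CPM. *Cfp*, properdin, which stabilizes the alternative pathway convertase, was higher, at 309.6 and 517 CPM. *C1ra* and *C1s1*, the proteases that complete the C1 complex, were at 29.4 and 36.6 CPM and 56.1 and 48.1 CPM in the macrophages, but at 281 and 348 CPM and at 485 and 628 CPM in other cells. RNA of the C1q chains and of their proteases thus lay mainly in different cells.

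Chemokine and cytokine genes were on balance higher in the *Piezo1* fl/fl macrophages, and in other cells also. The chemokine list summed to 10666 and 13465 CPM, with a median of 0.37, and *Cxcl1*, which attracts neutrophils, was the 1 of 11 tested at least 2-fold higher (1.88% of all tested genes were), at 165 and 442 CPM. *Cxcl2*, with the same role, was at 2717 and 3411 CPM, and *Ccl3* and *Ccl4*, which attract leukocytes, at 1437 and 1245 CPM and 1467 and 2050.3 CPM. The chemokine list rose in other cells too, from 657 to 894 CPM (log2 ratio 0.45, against 0.34 in the macrophages), so this rise was not confined to the macrophages. Cytokines and growth factors summed to 1783 and 2545 CPM, and to 1667 and 1873 CPM in other cells, with a median of 0.71, and 3 of 17 tested were at least 2-fold higher, against 1.88% of all tested genes. They were *Il1a* at 22.0 and 86.4 CPM, *Il10*, an inhibitor of inflammation, at 11.3 and 101 CPM and *Il18* at 33.4 and 105 CPM, the last at 33.0 and 47.2 CPM outside the cells of at least 20 *Vcam1* UMIs, under 2-fold. *Tnf* was at 396 and 656 CPM and the growth factor *Igf1* at 466 and 579.5 CPM, both higher in the *Piezo1* fl/fl library.

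Interferon response genes were higher in the *Piezo1* fl/fl macrophages, where 5 of 9 tested were at least 2-fold higher, against 1.88% of all tested genes, with a median of 1.00. The sum was 602 CPM (control) and 884 CPM (*Piezo1* fl/fl) (log2 ratio 0.55, interval 0.43 to 0.67), and 144 and 130.5 CPM in other cells. *Rsad2*, the antiviral enzyme viperin, was at 16.7 and 57.8 CPM, and *Ifit1*, which binds viral RNA, at 46.7 and 93.8 CPM. At 1500 UMIs 42.4% (interval 36.7 to 48.2) of control and 59.2% (53.2 to 64.9) of *Piezo1* fl/fl macrophages had a UMI of the list, and 14.7% and 13.9% of other cells. The 3 highest macrophages held 15.3% (control) and 10.7% (*Piezo1* fl/fl) of the list's UMIs, so its RNA was spread over many cells in each library.

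Transcription factors that define macrophages were level. *Spi1*, which encodes PU.1, was at 269 and 249 CPM and *Maf* at 1806 and 1789 CPM. Of 15 tested, 2 were at least 2-fold higher, *Nr1h3* with 9 and 53 UMIs and *Pparg* with 36 and 104 (1.88% of all tested genes were), and the list summed to 6838 and 7169 CPM with a median of 0.10. *Csf1r* and the other CSF1 axis genes gave 2776 and 2570.4 CPM with 0 of 4 past 2-fold. The ligand *Csf1* lay in other cells, at 189.7 and 220.3 CPM, against 18.7 and 13.7 CPM in the macrophages. Outside the cells of at least 20 *Vcam1* UMIs *Nr1h3* had 9 and 16 UMIs, under 2-fold in CPM, and *Pparg* 33 and 18, lower in *Piezo1* fl/fl cells. Toll-like receptor genes, which sense microbes, summed to 688 and 630.4 CPM, with 0 of 7 past 2-fold.

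Immediate early genes, which tissue digestion can induce, summed to 17320.1 and 18871 CPM with 0 of 10 past 2-fold, and to 13356 and 15199 CPM in other cells. They were slightly higher in the *Piezo1* fl/fl library in both groups. The mechanosensing list, which holds *Piezo1*, the channel *Trpv4* and targets of YAP, summed to 275 and 273 CPM with 0 of 4 tested genes past 2-fold, against 2899 and 3351 CPM in other cells. *Yap1* itself had 24 and 17 UMIs. For *Xist*, 0 UMIs were found in the macrophages of both libraries, and Y-linked *Ddx3y* was at 157 and 136 CPM, with 0 of 3 tested genes of the sex list past 2-fold at a sum of 252 and 253 CPM.

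Cell cycle genes fell in sum but not in the share of cells. The sum was 401 CPM (control) and 144 CPM (*Piezo1* fl/fl) (log2 ratio -1.48, interval -1.69 to -1.26), and 2 of 4 tested genes were at least 2-fold lower, against 1.54% of all tested genes, *Mki67* at 159 and 39.5 CPM (log2 ratio -2.01, and -1.27 as a mean of single-cell CPM) and the topoisomerase *Top2a* at 166 and 47.5 CPM. In other cells the list was also lower in the *Piezo1* fl/fl library, 28.8 against 17.0 CPM. A UMI of the list was found, at 1500 UMIs, in 6.78% (interval 4.19 to 10.3) of control and 7.75% (4.92 to 11.5) of *Piezo1* fl/fl macrophages and in 0.848% and 0.879% of other cells. The 3 highest macrophages held 43.4% (control) and 58.7% (*Piezo1* fl/fl) of the list's UMIs, so the sums rest largely on few cells.

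**Figure D3:**
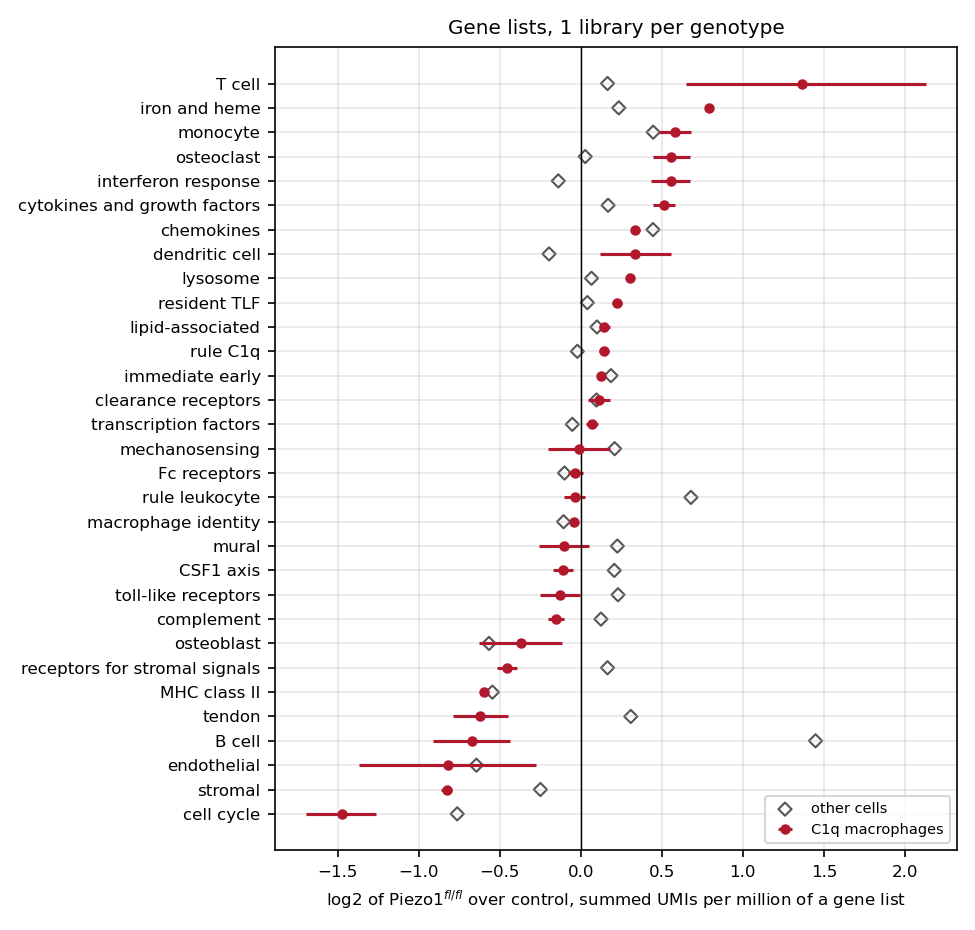
Log2 ratio of the *Piezo1* fl/fl over the control library for the summed CPM of each gene list with at least 50 UMIs, in C1q macrophages (filled points with exact 95% intervals for counting error) and in other cells (open diamonds); the neutrophil, erythroid and sex lists are not drawn. Iron and heme genes lie at 0.79 and MHC class II genes at -0.60 in the macrophages.

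Clusters of macrophages, found in each library alone, restate this variation and get no test. The control cells gave clusters of 107, 89, 84, 12 and 11 cells. The cluster of 89 was led by *Vsig4* and *Timd4*, with a resident list sum of 19830.5 CPM and an MHC class II sum of 7950.4 CPM, and the cluster of 84 by *Itgax*, with sums of 2679 and 38375 CPM. The cluster of 107 was led by *Vcam1* and *Fcgr4*, the cluster of 12 by stromal genes such as *Angptl1* and the cluster of 11 by the cell cycle gene *Ube2c*. The *Piezo1* fl/fl cells gave clusters of 93, 79, 40, 38, 28 and 13. The cluster of 93 was led by *Ccl24*, that of 79 by *Itgax* and that of 38 by *Arid5a* and *Ccl8*. Of the cluster of 28, led by *Cd5l* and *Itgad*, 25 cells belonged to the *Vcam1* set. That of 40 was led by *S100b* and held *Vsig4* together with *S100a9* and the mural gene *Acta2*, and that of 13 was led by stromal genes. A cluster found in 1 library may be a trait of that library.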

How the data were processed

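The authors deposited a matrix of raw UMI counts per gene and cell for each library, and the submitters' processing notes name fastp, STAR, UMI-tools and Seurat 4.0.3. The genome build was not given in the sources used here, and 31107 of 31253 gene identifiers were found in GENCODE vM21. Libraries were kept apart. UMIs were summed over the cells of a group and given as CPM with exact Poisson intervals, ratios with exact conditional intervals and shares with exact binomial (Clopper-Pearson) intervals. Ratios over genes used 0.5 added UMIs and genes with at least 50 UMIs over both groups compared. Named genes were those of 35 lists, the 15 with the highest control level, the 20 with the largest ratio over remaining cells in the library where it was smaller (at least 100 UMIs in each library) and the 8 with the largest ratio in each direction, ordered by the interval bound nearest 0 (at least 50 UMIs on the higher side), without mitochondrial, ribosomal, hemoglobin, *Xist* and Y-linked genes. Members and lists were chosen with earlier results of these data known. Scrublet (expected rate 0.05) called 55 and 69 cells, 8 macrophages in each library, which were kept. Clusters used 2000 variable genes, 20 components and Leiden resolution 0.5. Python 3.11.15, scipy 1.17.1 and scanpy 1.11.5 were used. Intervals were checked on simulated data.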

Additional observations from a re-analysis of the deposited data

Results flagged for a closer look

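Barcodes outside the filters on detected genes and mitochondrial UMIs also met both UMI sums. There was 1 in the control library and there were 2 in the *Piezo1* fl/fl library, of which 1 had over 5000 detected genes.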

How the results depend on the processing

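Results were recomputed under 13 alternatives, 8 planned and 5 chosen after seeing the data (marked added). MHC class II and stromal sums were lower in the *Piezo1* fl/fl macrophages, and iron and heme, resident and lysosome sums higher, under every alternative run. Shares, sums and counts outside the interval of the main value or past 1.5 times it follow. Ratios that changed sign are given too, among 32 chosen genes. Sums are log2 ratios unless in CPM, and the cause was not tested.

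With 1000 to 5000 detected genes, the macrophage share was 6.33% (control) and 5.37% (*Piezo1* fl/fl). With no upper limit of detected genes, the ratio was *Vsig4* (reversed) 0.0181. With at least 10 UMIs for both sums, the macrophage share was 2.65% (control) and 1.98% (*Piezo1* fl/fl), the identity sum was 31143 CPM (control) and ratios were MHC class II -0.53, iron and heme 0.97, resident TLF 0.17, stromal -0.66, lysosome 0.38 and *Vsig4* (reversed) 0.16. Without Scrublet doublets, the identity sum was 30044 CPM (control) and 29363 CPM (*Piezo1* fl/fl) and the ratio was stromal -0.93. Without macrophages of 2% or more stromal UMIs, the identity sum was 30984 CPM (control) and 29532 CPM (*Piezo1* fl/fl) and ratios were MHC class II -0.65, stromal -0.55 and *Apod* (reversed) 0.53. With every cell thinned to 1500 UMIs (3092 genes tested), the identity sum was 30899 CPM (control) and 29849.8 CPM (*Piezo1* fl/fl), 42 genes were at least 2-fold higher, 42 genes were at least 2-fold lower and ratios were MHC class II -0.66, iron and heme 0.57, resident TLF 0.42, stromal -0.78, lysosome 0.22 and *Vsig4* (reversed) 0.28. With the mean of single-cell CPM, the identity sum was 30842 CPM (control) and 29697 CPM (*Piezo1* fl/fl) and ratios were MHC class II -0.64, iron and heme 0.59, resident TLF 0.43, stromal -0.76, lysosome 0.24 and *Vsig4* (reversed) 0.20. With the C1q sum alone (added), the macrophage share was 9.26% (control) and 8.39% (*Piezo1* fl/fl), the identity sum was 28023 CPM (control) and 27565 CPM (*Piezo1* fl/fl) and ratios were MHC class II -0.64, iron and heme 0.67, stromal -0.66 and lysosome 0.25. Without cells of at least 20 *Vcam1* UMIs (added), the identity sum was 29318 CPM (*Piezo1* fl/fl), 75 genes were at least 2-fold higher and ratios were MHC class II -0.52, iron and heme 0.45, resident TLF 0.32, stromal -0.70, lysosome 0.16 and *Vsig4* (reversed) 0.0492. Without cells of at least 20 neutrophil and hemoglobin UMIs (added), ratios were MHC class II -0.50, iron and heme 0.59, resident TLF 0.27, stromal -0.75 and lysosome 0.22. Among genes at least 2-fold higher in macrophages than in other cells (added), 56 genes were at least 2-fold higher and 23 genes were at least 2-fold lower.

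Of 355 ratios of single genes under alternatives, 282 lay within the main interval, 67 outside it, and 6 changed sign. Ratios of a gene with no UMI left in 1 library got no value. No paired analysis was possible because each genotype has 1 library and the labels pair none. Limits: there are no replicates, the leukocyte sum favours deep cells, RNA shared between cells was not removed, and the Prx1 sort was not meant to collect leukocytes.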
